A study of Homo sapiens with 24 samples.

Results

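Ephrins, Eph receptors, slits, robos and netrins are the ligands and receptors with which growing axons and migrating cells read their surroundings. They are described here with neogenin, the UNC5 receptors, the L1 family of adhesion molecules and the collapsin response mediator proteins (CRMPs), in 2 glioma cell lines treated with EGCG, HC or both. The rule that picks the genes uses their names and no measured value, but the names were chosen with earlier results of these data known. Of 40 names, 39 were found among the 34229 gene symbols of the series. The name EFNA3 was not matched, because its gene is listed as 2 rows with suffixes.

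Eph receptors are receptor tyrosine kinases whose ligands, the ephrins, sit in the membrane of the neighbouring cell. Ephrin-A ligands are held by a lipid anchor and bind mostly EphA receptors, ephrin-B ligands cross the membrane and bind mostly EphB receptors, and binding can send a signal into both cells. Slits are secreted proteins that repel cells bearing robo receptors. Netrins are secreted, laminin-related proteins that attract through DCC and neogenin and repel through UNC5 receptors. L1CAM and its relatives bind cell to cell, and CRMPs bind tubulin and act on microtubules downstream of guidance receptors. In glioma these families are known for their part in invasion and in the contact of tumour cells with their surroundings.

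The cells were 1321N1, a line labelled as grade II glioma, and LN18, labelled as grade IV, each a single established line. The study grew 1321N1 in medium with a higher share of foetal bovine serum than LN18. Controls received the vehicle, which the study describes as ethanol. The other cells were treated for 24 h with epigallocatechin-3-gallate (EGCG, a green tea catechin) at 50 µg/ml, with hydroxychavicol (HC, a phenol of betel leaf) at 20 µg/ml in 1321N1 or 10 µg/ml in LN18, or with the same amounts of both (EGCG+HC). Each of the 8 groups had 3 libraries, described in the labels as independent tests, without saying whether these were separate cultures. The p-values measure only the spread between such libraries.

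The values were reads per kilobase of gene per M counted reads (RPKM), so that levels of different genes can be compared. The spacing of low values gave between 13.7 and 32.2 M counted reads per library, with a median of 19.2. Of 24 libraries, 23 lay nearest to one of their own group, and 1321N1 EGCG replicate 1 lay nearest to a control library. In 1321N1 EGCG replicates 2 and 3, 263 genes that lay above 1 RPKM in replicate 1 are listed at 0, of which 0 belong to the families described here. VIM and CD44 made up nearly all of the summed level of 9 astroglial and neural stem markers, which was 1004 to 1092 RPKM in 1321N1 controls and 401.9 to 423.9 in LN18 controls. With EGCG+HC this sum was 585.6 to 611.6 RPKM in 1321N1 and 246.3 to 250 in LN18. GFAP was below 0.1 RPKM in 1321N1 controls, and S100B, AQP4, ALDH1L1, SOX2 and FABP7 were below it in controls of both lines. Of the 5 endothelial and 4 oligodendroglial markers, 0 reached a mean of 1 RPKM in any group. The epithelial keratins KRT8 and KRT18 were expressed in both lines. The summed level of the 4 epithelial markers was 11.8 to 12.1 RPKM in 1321N1 control and 25.8 to 29.6 with EGCG+HC. In LN18 it was 133.3 to 142.8 in control and 56.6 to 59 with EGCG+HC. That of the 4 blood cell markers was 23.5 to 25.6 RPKM in control and 32.6 to 32.9 with EGCG+HC in 1321N1, and 17.2 to 20.2 and 31 to 32 in LN18, with HBB under 0.1 RPKM in 1321N1. CD68 made up nearly all of this sum in controls. CD14 had a mean of 0.288 RPKM in 1321N1 control and 2.85 with EGCG+HC, and 0.171 and 3.15 in LN18. The summed level of the 6 neuronal markers was 15.2 to 17.3 RPKM in 1321N1 control, 14.9 to 15.8 with HC and 13.1 to 13.9 with EGCG+HC. In LN18 it was 24.2 to 25.4 in control, 39.3 to 40.55 with HC and 13.6 to 14.7 with EGCG+HC. ENO2 made up most of this sum in LN18, with means of 23.7, 36.5 and 13.2 RPKM in these groups. SNAP25 had a mean of 0.846 RPKM in LN18 control and 3.33 with HC. Whether these shifts have a part in the results below was not tested.

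Both lines expressed few of the genes well and most at a low level. Of the 39 matched genes, 23 in 1321N1 and 19 in LN18 reached a mean of 1 RPKM in some group, and 5 and 6 reached 10 RPKM. EPHA2, the receptor of ephrin-A1, was the leading Eph gene. It gave 67.9 to 72.1% of the summed level of the EphA genes in 1321N1 controls and 98.2 to 99% in LN18 controls, with names missing from a table taken as 0 in these sums. L1CAM gave 99.3 to 99.4% of the L1 family in LN18 controls. DPYSL3, a CRMP, gave 85.4 to 86.9% of the summed level of DPYSL2 and DPYSL3 in 1321N1 controls and 85.9 to 88.2% in LN18 controls. Other CRMP genes are not among the members and not in this sum. SLIT2 gave nearly all of the slit level, NTN4 most of the netrin level and NEO1, the gene of neogenin, most of the level of netrin receptors in controls of both lines.

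The lowest members are given by level alone. EFNA2 and EPHA7 are not listed in 1321N1, and DCC and CHL1 are not listed in LN18. EPHB6 is listed in 1321N1 in the HC group alone, and SLIT1 in LN18 in the EGCG+HC group alone. EPHA1, EPHB1, SLIT3, ROBO2, NTN1, NTN3, UNC5A, UNC5C and UNC5D had a mean under 1 RPKM in every group, as did EFNA2, EPHA7, EPHB6, SLIT1, DCC and CHL1 wherever they are listed. EPHA5 was just at the limit in 1321N1, with 0.868, 0.881 and 0.847 RPKM in control libraries and 1.09, 1.19 and 0.917 with EGCG. None of these was tested. With EGCG+HC, EPHA1, EPHB1, SLIT3, UNC5A and UNC5C lay above every control library in both lines. EPHB1 was at 0.175 to 0.213 RPKM in 1321N1 control and 0.391 to 0.422 with EGCG+HC. In LN18 it was at 0.038 to 0.066 and 0.245 to 0.293. NTN1 and EFNA2 lay above control in LN18, and DCC and UNC5D in 1321N1. CHL1 lay below control in 1321N1, and the rest overlapped control where listed. The share of all genes that moved so is not given. The row EFNA3_2 had 8.5 ± 0.166 RPKM (SD, n = 3) in 1321N1 control and 3.36 ± 0.138 in LN18 control. Its mean in LN18 was 7.44 ± 0.502 after EGCG, 7.63 ± 1.48 after HC and 5.45 ± 0.284 after EGCG+HC. The files do not say what parts of the gene the suffixes stand for, so no test is given.

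The control libraries show how the lines, each in its own medium, differed before treatment. Line and serum cannot be told apart there. The test used throughout was limma on log2(RPKM + 1), and a gene is called higher or lower where its p, adjusted over all genes tested, is 0.05 or less and its fold change on that scale is 1.5 or more. In LN18 control against 1321N1 control, 21 of the genes were tested, 6 were higher and 6 lower, where 21.9% of all genes tested were higher and 20.7% lower. L1CAM was far higher in LN18, with 3.81, 3.31 and 3.65 RPKM in the 1321N1 libraries and 43.4, 37 and 38.5 in LN18 (log2 fold change 3.15, SE 0.07, adjusted p = 3.43e-08). EPHA3, a receptor of ephrin-A5, went the other way, with 8.84, 8.91 and 9.02 RPKM in 1321N1 and 0.068, 0.093 and 0.079 in LN18 (log2 fold change -3.20, SE 0.05, adjusted p = 7.94e-09). The libraries of the lines did not overlap for either gene. EPHA2, EFNB1, ROBO4, SLIT2 and ROBO3 were also higher in LN18, with log2 fold changes of 1.27, 0.99, 1.01, 0.65 and 0.62. EFNB2, EPHA4, EPHB3, ROBO1 and EFNA4 were lower, with -1.73, -1.59, -1.58, -1.40 and -0.84. EPHA3, EPHA4 and EPHB3 were under 1 RPKM in LN18 and met the filter on the mean through 1321N1. Without LN18 control replicate 3 SLIT2 missed the fold limit (0.58), as did ROBO3 after rescaling over genes other than mitochondrial ones (0.58).

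**Figure D1:**
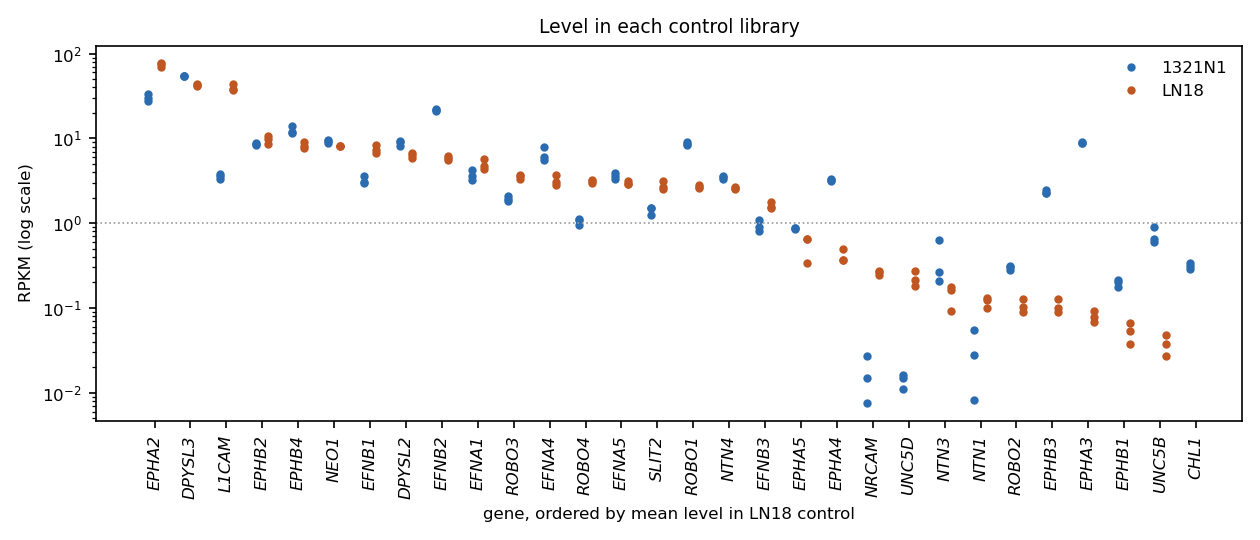
Level in RPKM (log scale) in each of the 3 control libraries of 1321N1 (blue) and LN18 (orange), for genes whose mean in either control reached 0.1 RPKM, ordered by their mean in LN18; the dotted line is 1 RPKM and a value of 0 or a missing name is not drawn. L1CAM and EPHA2 lie higher in LN18, and EPHA3, EPHA4 and EPHB3 lie at over 1 RPKM in 1321N1 and under it in LN18.

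Treatment changed some members of every family but left others close to control. With EGCG alone, 22 genes were tested in 1321N1, of which 1 was higher (all genes 3.14%) and 1 lower (all genes 1.83%). In LN18, 18 were tested, of which 0 were higher (all genes 9.11%) and 4 lower (all genes 9.7%). With HC alone, 20 genes were tested in 1321N1, of which 7 were higher (all genes 18.8%) and 3 lower (all genes 17.7%). In LN18, at a lower amount of HC, 18 were tested, of which 1 was higher (all genes 9.48%) and 0 lower (all genes 2.26%). With EGCG+HC, 20 genes were tested in 1321N1, of which 1 was higher (all genes 23.1%) and 6 lower (all genes 18%). In LN18, 18 were tested, of which 1 was higher (all genes 24.1%) and 7 lower (all genes 22.2%). The median log2 fold change with EGCG+HC was -0.36 over the genes tested in 1321N1 and -0.35 in LN18, where that of all genes tested was -0.01 and 0.01. As shares of the members tested with EGCG+HC, those lower were 30% in 1321N1 and 38.9% in LN18, above the share of all genes, and those higher were 5% and 5.56%, below it. No test was made of these shares, and the comparisons of a line share its control libraries. Of those lower in LN18, EFNB3, ROBO3 and ROBO4 met the filter on the mean through the control libraries. UNC5B, the 1 higher in 1321N1, met it through the treated libraries. Without LN18 control replicate 3, 4 of 18 tested were lower in LN18 and 2 higher, so that the shares there depend on the filter and on single libraries.

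**Figure D2:**
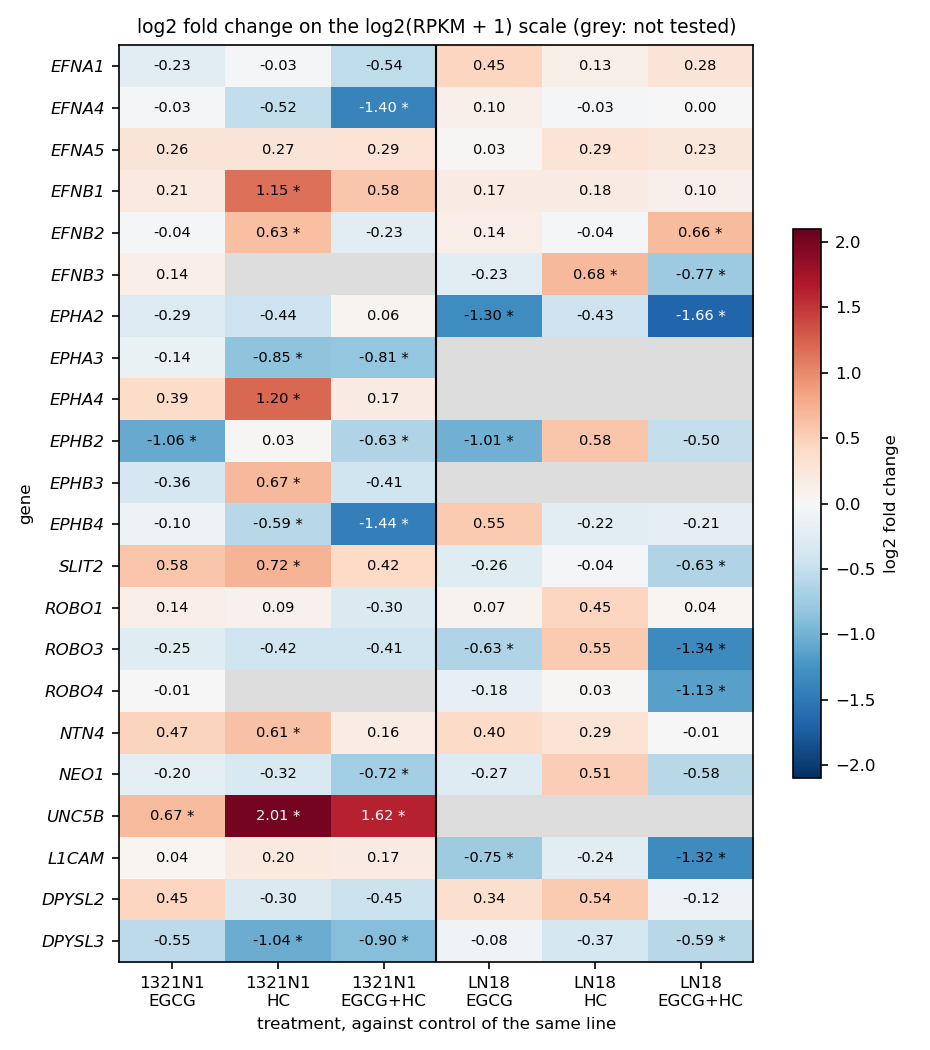
Log2 fold change on the log2(RPKM + 1) scale for each gene tested (rows), with EGCG, HC and EGCG+HC against control in 1321N1 and LN18 (columns); an asterisk marks an adjusted p of at most 0.05 with a fold change of at least 1.5, and grey cells were not tested. The changes past the threshold run from -1.66 (EPHA2, LN18, EGCG+HC) to 2.01 (UNC5B, 1321N1, HC), and DPYSL3 is the 1 gene marked with EGCG+HC in both lines.

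Among EphA receptors, EPHA2 fell in LN18 and did not pass the threshold in 1321N1. EPHA2 (ENSG00000142627, GRCh37 chr1:16450832-16482564, minus strand) had 70.4, 75.4 and 78.5 RPKM in the LN18 control libraries and 29.6, 29.9 and 29.6 with EGCG. It had 58.5, 54.9 and 52.4 RPKM with HC and 23.9, 22.6 and 22.4 with EGCG+HC. The control libraries were the highest, those with HC lay next, and those with EGCG and with EGCG+HC were lowest, with no overlap between any of the 4 groups. The mean was 2.52-fold lower with EGCG (log2 fold change -1.30, SE 0.04, adjusted p = 1.38e-06) and 3.26-fold lower with EGCG+HC (log2 fold change -1.66, SE 0.05, adjusted p = 1.13e-07). With HC the log2 fold change was -0.43 (adjusted p = 0.000678), under the fold limit. In 1321N1 the libraries held 33.5, 29.9 and 27.9 RPKM in control and 30.8, 32.4 and 32.2 with EGCG+HC, and these overlap (log2 fold change 0.06, SE 0.07, adjusted p = 0.382). With each single agent EPHA2 was below every 1321N1 control library but under the fold limit. The log2 fold change was -0.29 with EGCG (adjusted p = 0.0297) and -0.44 with HC (adjusted p = 0.000742). In bulk RNA, fewer cells with a transcript and less of it per cell cannot be told apart. After EGCG+HC all 3 LN18 libraries were thus below all 3 of 1321N1, while in control they were above. The other EphA genes tested reached a mean of 1 RPKM in 1321N1 alone. EPHA3 (ENSG00000044524, GRCh37 chr3:89156771-89531284, plus strand) had 8.84, 8.91 and 9.02 RPKM in 1321N1 control, 8.29, 7.92 and 7.78 after EGCG, 4.69, 4.51 and 4.33 after HC and 4.89, 4.74 and 4.3 after EGCG+HC. Libraries with HC, alone or combined, were about level with each other and below the rest. EPHA3 fell with HC (log2 fold change -0.85, SE 0.04, adjusted p = 2.06e-06) and with EGCG+HC (log2 fold change -0.81, SE 0.05, adjusted p = 4.39e-06). EPHA4, which binds ephrins of both classes, was at 3.15 to 3.31 RPKM in 1321N1 control and 8.21 to 9.25 with HC, a 2.71-fold rise (log2 fold change 1.20, SE 0.05, adjusted p = 1.05e-06). With EGCG+HC it was at 3.66 to 3.89 RPKM (log2 fold change 0.17 against control).

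Among EphB receptors, EPHB2 fell with EGCG in both lines and EPHB4 fell with EGCG+HC in 1321N1. EPHB2 (ENSG00000133216, GRCh37 chr1:23037332-23247993, plus strand), a receptor of the ephrin-B ligands, had 8.88, 8.47 and 8.64 RPKM in 1321N1 control and 3.36, 3.82 and 3.77 with EGCG (log2 fold change -1.06, SE 0.05, adjusted p = 0.000137). In LN18 it had 8.57, 9.9 and 10.8 RPKM in control and 4.4, 4.11 and 4.48 with EGCG (log2 fold change -1.01, SE 0.08, adjusted p = 3.29e-05). The mean was 2.37-fold lower in 1321N1 and 2.25-fold lower in LN18, with no overlap of the groups, and the difference between these responses was 0.05 on the log2 scale (SE 0.10, adjusted p = 0.697). With HC, EPHB2 was at 9.08, 8.9 and 8.66 RPKM in 1321N1, overlapping control, and at 15.6, 14.5 and 14.8 in LN18, above all controls but under the fold limit (log2 fold change 0.58, SE 0.08, adjusted p = 0.000657). With EGCG+HC it was at 5.35, 4.9 and 5.55 RPKM in 1321N1, below control and above EGCG (log2 fold change -0.63, SE 0.05, adjusted p = 1.85e-05), and at 6.66, 6.59 and 6.49 in LN18 (log2 fold change -0.50, SE 0.07, adjusted p = 0.000477), where it missed the fold limit. The call in 1321N1 with EGCG+HC was lost without EGCG+HC replicate 2 (-0.58).

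EPHB4 (ENSG00000196411, GRCh37 chr7:100400187-100425145, minus strand), the receptor of ephrin-B2, had 14, 11.7 and 11.9 RPKM in 1321N1 control, 10.6, 12 and 12.2 after EGCG, 8.2, 8.01 and 7.69 after HC and 4.12, 3.98 and 3.81 after EGCG+HC. EGCG libraries overlapped control, HC libraries lay below both, and EGCG+HC libraries lay lowest. The mean fell 3.15-fold with EGCG+HC (log2 fold change -1.44, SE 0.07, adjusted p = 1.58e-06) and 1.57-fold with HC (log2 fold change -0.59, SE 0.07, adjusted p = 0.000172). The call with HC missed the fold limit without control replicate 1 (-0.51) or without HC replicate 3 (-0.57). In LN18 EPHB4 had 9.09, 7.72 and 8.15 RPKM in control, 12.8, 12.8 and 12.3 after EGCG, 7.35, 6.88 and 6.69 after HC and 7.22, 7.01 and 6.9 after EGCG+HC. EGCG libraries were the highest there, with a log2 fold change of 0.55 (adjusted p = 0.000129) that missed the fold limit and passed it without control replicate 1. EPHB3 reached 1 RPKM in 1321N1 alone and rose there with HC. It was at 2.24 to 2.43 RPKM in control and 4.12 to 4.54 with HC (log2 fold change 0.67, SE 0.06, adjusted p = 2.72e-05). With EGCG+HC it was at 1.46 to 1.54 RPKM. The summed level of the EphB genes in 1321N1 was 23.7 ± 1.6 RPKM (SD, n = 3) in control and 11.1 ± 0.35 with EGCG+HC, and that of the EphA genes in LN18 75.8 ± 3.82 and 24.4 ± 0.703.

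Promoter sequences are shown for the Eph genes and the ephrin whose levels moved most or in different ways in the lines. They are RefSeq promoters on GRCh38.p14, from 250 bases before to 50 after the start of the gene, written along the strand of the gene. Of the 40 names, 34 have one in the table used. Capitals mark matches, on either strand, to letters searched for in them, which were TGATGNAA (ATF4), TGACNNNGC (antioxidant response element, ARE), the heat shock element, TGANTCA (AP-1), TGACGTCA (cAMP response element, CRE), CACGTG (E-box), GGGCGG (SP1) and GGAATG (TEAD).
EPHA2 (chr1:16156020-16156319, minus strand): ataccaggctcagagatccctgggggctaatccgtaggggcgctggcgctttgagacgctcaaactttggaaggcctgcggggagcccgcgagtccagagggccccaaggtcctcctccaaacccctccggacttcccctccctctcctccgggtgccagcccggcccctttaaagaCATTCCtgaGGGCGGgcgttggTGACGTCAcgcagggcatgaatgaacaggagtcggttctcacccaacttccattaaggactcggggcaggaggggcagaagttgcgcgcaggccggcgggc
EPHB2 (chr1:22710588-22710887, plus strand): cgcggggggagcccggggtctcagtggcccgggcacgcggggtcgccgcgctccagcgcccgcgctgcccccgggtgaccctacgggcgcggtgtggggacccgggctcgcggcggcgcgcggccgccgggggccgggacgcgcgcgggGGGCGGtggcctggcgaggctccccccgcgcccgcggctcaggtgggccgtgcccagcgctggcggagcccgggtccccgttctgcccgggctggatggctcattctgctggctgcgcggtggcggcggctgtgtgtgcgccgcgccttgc
EPHB4 (chr7:100827474-100827773, minus strand): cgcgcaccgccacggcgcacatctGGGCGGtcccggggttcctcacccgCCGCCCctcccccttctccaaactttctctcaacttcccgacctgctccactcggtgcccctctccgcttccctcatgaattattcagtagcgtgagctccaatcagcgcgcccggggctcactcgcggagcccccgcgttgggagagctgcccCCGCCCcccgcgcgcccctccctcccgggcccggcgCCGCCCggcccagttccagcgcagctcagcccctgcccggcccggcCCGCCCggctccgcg
EFNB2 (chr13:106535613-106535912, minus strand): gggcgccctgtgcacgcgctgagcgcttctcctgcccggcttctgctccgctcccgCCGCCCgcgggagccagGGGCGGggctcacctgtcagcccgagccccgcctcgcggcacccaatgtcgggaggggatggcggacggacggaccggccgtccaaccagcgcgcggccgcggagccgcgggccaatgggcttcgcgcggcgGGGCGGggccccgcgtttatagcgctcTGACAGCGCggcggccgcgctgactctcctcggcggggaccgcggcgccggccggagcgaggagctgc
The EPHA2 promoter holds the CRE letters, found in 1.85% of 35116 promoters, next to an SP1 match (44.95% of promoters) and a TEAD match (14.03%). The EPHB2 promoter holds 1 SP1 match, the EPHB4 promoter holds 5, and the EFNB2 promoter holds 3 and an ARE match (13.35% of promoters). SP1 letters were in 29 of the 34 promoters and ARE letters in 8. The letters for ATF4, the heat shock element and the E-box were in 0 of 34, where 3.62, 0.49 and 7.26% of all promoters hold them. A match is a run of letters and was not tested as a binding site.

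Among the ephrin ligands, EFNB2 rose in 1321N1 with HC and in LN18 with EGCG+HC, EFNB1 rose and EFNA4 fell in 1321N1, and EFNB3 moved both ways in LN18. EFNB2 (ENSG00000125266, GRCh37 chr13:107142093-107188010, minus strand), the ligand of EPHB4, had 21.1, 21.9 and 21.9 RPKM in 1321N1 control and 33.1, 34.4 and 34.3 with HC, a 1.57-fold rise (log2 fold change 0.63, SE 0.04, adjusted p = 3.34e-06). EGCG libraries overlapped control there, and with EGCG+HC the level was 19, 17.4 and 18.6 RPKM, below every control library but under the fold limit (log2 fold change -0.23, adjusted p = 0.00175). In LN18 it had 5.49, 5.83 and 6.24 RPKM in control, 6.39, 6.76 and 6.47 after EGCG, 6.12, 5.5 and 5.43 after HC and 9.37, 9.98 and 10.0 after EGCG+HC. The combined treatment was thus the highest group in LN18, 1.67-fold above control (log2 fold change 0.66, SE 0.05, adjusted p = 1.43e-05), and HC the highest in 1321N1. Both rises missed the fold limit after rescaling over genes other than mitochondrial ones, with 0.54 in 1321N1 with HC and 0.56 in LN18 with EGCG+HC. Of the exonic length of EFNB2, 36.4% overlaps an antisense transcript (ENSG00000284966), and the library kit keeps no strand, so that reads of both are counted together.

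EFNB3 (ENSG00000108947, GRCh37 chr17:7608520-7614690, plus strand) had 1.78, 1.56 and 1.51 RPKM in LN18 control, 1.33, 1.39 and 0.999 after EGCG, 3.3, 3.42 and 2.87 after HC and 0.51, 0.544 and 0.55 after EGCG+HC. HC libraries were above all controls and EGCG+HC libraries below them, so that the single agent and the combination lay on opposite sides of control. EFNB3 rose with HC (log2 fold change 0.68, SE 0.08, adjusted p = 0.000327) and fell with EGCG+HC (log2 fold change -0.77, SE 0.07, adjusted p = 2.38e-05). The rise was lost with quantile normalization (0.47). With EGCG+HC the mean was under 1 RPKM, so that EFNB3 met the filter only through the control libraries, and leaving out any 1 of those took it out of the test. The level is low, with about 25.1 reads in the lowest of the 24 libraries, so that counting error is large there. EFNB1 rose with HC in 1321N1, from 3.61, 3.01 and 3.04 to 8.51, 8.78 and 7.86 RPKM (log2 fold change 1.15, SE 0.07, adjusted p = 4.98e-06). With EGCG+HC it was at 5.52, 5.29 and 5.15 RPKM, above control but just under the fold limit (log2 fold change 0.58, adjusted p = 0.000116), and in LN18 it stayed between 6.67 and 8.89 RPKM in all 12 libraries. EFNA4 (ENSG00000243364, GRCh37 chr1:155036213-155042029, plus strand), an ephrin-A ligand, had 7.88, 6.11 and 5.63 RPKM in 1321N1 control, 5.58, 6.36 and 7.05 after EGCG, 4.23, 4.59 and 3.88 after HC and 1.7, 1.75 and 2.08 after EGCG+HC. The EGCG+HC libraries lay below all others, 3.55-fold under control (log2 fold change -1.40, SE 0.11, adjusted p = 1.96e-05). With HC the log2 fold change was -0.52 (adjusted p = 0.00398), under the fold limit. In LN18 the 4 groups overlapped, at 2.55 to 4.18 RPKM. EFNA1, the ligand of EPHA2, was at 3.22 to 4.2 RPKM in 1321N1 control and 2.13 to 2.37 with EGCG+HC (log2 fold change -0.54, under the fold limit), and at 4.4 to 5.67 and 5.82 to 6.57 in LN18. EFNA5 had log2 fold changes between 0.03 and 0.29 in the 6 comparisons with control, all under the fold limit.

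**Figure D3:**
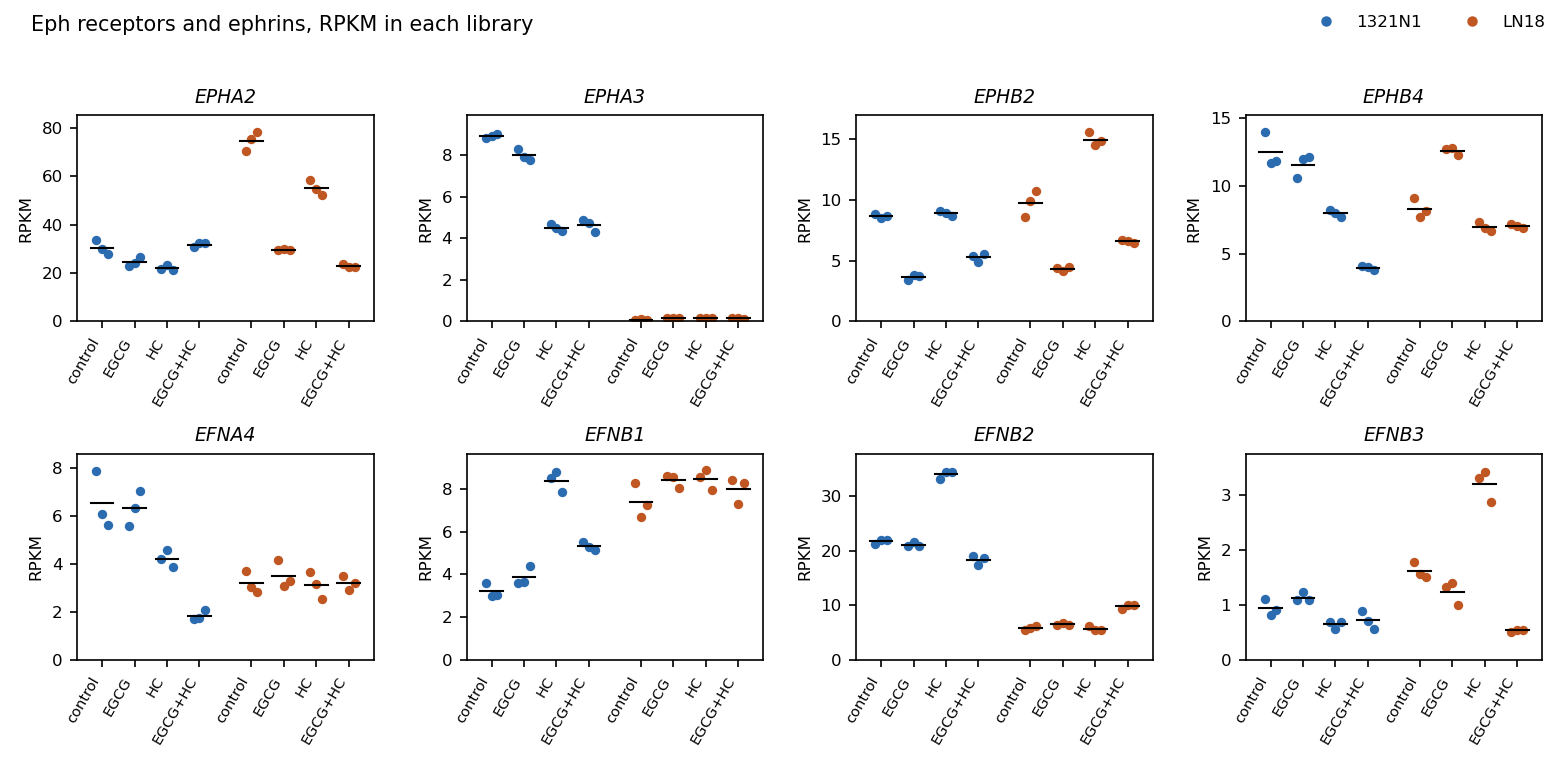
RPKM in each library (points) and the mean of the 3 libraries of a group (line) for 4 Eph receptors and 4 ephrins, in 1321N1 (blue) and LN18 (orange), on axes that start at 0. EPHA2 is lowered by EGCG and EGCG+HC in LN18, EPHB2 by EGCG in both lines, and EPHB4 and EFNA4 most by EGCG+HC in 1321N1.

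In the slit and robo families, ROBO3 and ROBO4 fell in LN18 and SLIT2 rose with HC in 1321N1 and fell with EGCG+HC in LN18. ROBO3 (ENSG00000154134, GRCh37 chr11:124735328-124751367, plus strand), which in commissural neurons of the mouse counters the response to slit, had 3.71, 3.3 and 3.6 RPKM in LN18 control, 1.85, 2.16 and 1.77 after EGCG, 5.76, 6.08 and 5.17 after HC and 0.891, 0.692 and 0.806 after EGCG+HC. The 4 groups did not overlap. HC libraries were the highest and EGCG+HC libraries the lowest. ROBO3 fell 1.84-fold with EGCG (log2 fold change -0.63, SE 0.07, adjusted p = 0.000155) and 4.44-fold with EGCG+HC (log2 fold change -1.34, SE 0.07, adjusted p = 1.31e-06). With HC the log2 fold change was 0.55 (adjusted p = 0.000486), under the fold limit. ROBO4 (ENSG00000154133, GRCh37 chr11:124753587-124768396, minus strand), known from endothelium, had 3.24, 3.17 and 3.0 RPKM in LN18 control, 2.6, 2.74 and 2.64 after EGCG, 3.48, 3.24 and 2.96 after HC and 0.944, 0.941 and 0.777 after EGCG+HC, and only the last stood far from control, 3.54-fold lower (log2 fold change -1.13, SE 0.06, adjusted p = 1.94e-06). ROBO3 and ROBO4 were under 1 RPKM with EGCG+HC in LN18 and met the filter through the control libraries. Other endothelial markers were near 0 in LN18 controls (0.272 to 0.311 RPKM summed over 5), and antisense transcripts overlap 11.2% of the exonic length of ROBO4. In 1321N1 ROBO3 was at 1.82 to 2.08 RPKM in control and 1.19 to 1.24 with EGCG+HC (log2 fold change -0.41, under the fold limit), and ROBO4 was at 0.943 to 1.12 RPKM in control and 0.679 to 0.713 with EGCG+HC, too low to be tested. ROBO1, the main receptor of SLIT2, passed the threshold in 0 of the 6 comparisons with control, with log2 fold changes from -0.30 in 1321N1 with EGCG+HC to 0.45 in LN18 with HC.

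SLIT2 (ENSG00000145147, GRCh37 chr4:20253528-20622184, plus strand) had 1.25, 1.5 and 1.49 RPKM in 1321N1 control, 2.77, 2.68 and 2.38 after EGCG, 2.96, 3.22 and 2.74 after HC and 2.2, 2.2 and 2.27 after EGCG+HC. Every treated library was above every control library. The rise passed the threshold with HC (log2 fold change 0.72, SE 0.08, adjusted p = 8.55e-05) but missed the fold limit with EGCG (0.58) and EGCG+HC (0.42). In LN18 it had 2.56, 2.66 and 3.14 RPKM in control, 2.21, 2.08 and 2.18 after EGCG, 2.82, 2.49 and 2.72 after HC and 1.37, 1.38 and 1.58 after EGCG+HC, where the combined treatment was lowest (log2 fold change -0.63, SE 0.08, adjusted p = 0.000155). This fall missed the fold limit without control replicate 3 (-0.56). SLIT3 stayed under 1 RPKM, but was at 0.00414 to 0.026 RPKM in 1321N1 control and 0.012 to 0.014 with EGCG, and was higher at 0.167 to 0.225 with HC and 0.163 to 0.19 with EGCG+HC. In LN18 SLIT3 was at 0.00455 to 0.011 RPKM in control and 0.053 to 0.091 with EGCG+HC.

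Among the netrins and netrin receptors tested, UNC5B rose most in 1321N1 on the log2(RPKM + 1) scale, and NEO1 fell with EGCG+HC. UNC5A, too low to be tested, went from a mean of 0.0137 RPKM in 1321N1 control to 0.399 with EGCG+HC, and from 0.0117 to 0.261 in LN18. UNC5B (ENSG00000107731, GRCh37 chr10:72972327-73062621, plus strand), a receptor that mediates repulsion by netrin, had 0.892, 0.651 and 0.597 RPKM in 1321N1 control, 1.49, 1.91 and 1.76 after EGCG, 6.54, 4.99 and 6.16 after HC and 4.13, 4.46 and 4.16 after EGCG+HC. The 4 groups did not overlap. The mean was 2.41-fold above control with EGCG (log2 fold change 0.67, SE 0.10, adjusted p = 0.00462), 8.27-fold with HC (log2 fold change 2.01, SE 0.11, adjusted p = 2.45e-06) and 5.96-fold with EGCG+HC (log2 fold change 1.62, SE 0.08, adjusted p = 1.37e-06). The control is under 1 RPKM, so that the gene met the filter through the treated libraries. The call with EGCG was lost when 1321N1 EGCG replicates 2 and 3, which hold the genes at 0 described above, were left out together (0.54), a choice made after seeing the data. That fit has replicate 1 as its lone EGCG library, which lay nearest to control and is assumed to vary like the others. In LN18 UNC5B was under 1 RPKM in all 12 libraries, at 0.027 to 0.048 RPKM in control, 0.246 to 0.316 with HC and 0.166 to 0.203 with EGCG+HC, so that the ratio of means to control was 7.2 and 4.95 at this low level, with no test. NEO1 (ENSG00000067141, GRCh37 chr15:73344051-73597546, plus strand), a receptor of netrins and of repulsive guidance molecules, had 9.3, 9.53 and 8.79 RPKM in 1321N1 control, 7.7, 7.88 and 7.98 after EGCG, 7.34, 6.86 and 7.29 after HC and 5.05, 5.16 and 5.34 after EGCG+HC. All treated libraries were below control and those with EGCG+HC lowest (log2 fold change -0.72, SE 0.04, adjusted p = 4.59e-06). In LN18 it had 8.21, 8.09 and 8.04 RPKM in control, 6.39, 6.64 and 6.62 after EGCG, 12.4, 11.1 and 12.4 after HC and 4.88, 5.17 and 5.28 after EGCG+HC. HC libraries were above control there and EGCG+HC libraries below it, and the latter just missed the fold limit (log2 fold change -0.58, SE 0.04, adjusted p = 7.11e-06), passing it without EGCG+HC replicate 3. NTN4, which also binds laminin, rose with HC in 1321N1, from 3.5, 3.32 and 3.63 to 5.84, 5.35 and 6.34 RPKM (log2 fold change 0.61, SE 0.07, adjusted p = 9.42e-05). That call missed the fold limit without control replicate 2 (0.58), without HC replicate 3 (0.56), with quantile normalization (0.57) and after rescaling without mitochondrial genes (0.54). With EGCG+HC NTN4 was at 3.73 to 4.2 RPKM in 1321N1 and 2.46 to 2.64 in LN18, near the controls (3.32 to 3.63 and 2.5 to 2.66).

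L1CAM (ENSG00000198910, GRCh37 chrX:153126969-153151627, minus strand), a molecule that binds cells to one another, fell in LN18. It had 43.4, 37 and 38.5 RPKM in LN18 control, 22.7, 23.8 and 22.9 after EGCG, 35.5, 32.6 and 32.3 after HC and 15.5, 15.5 and 14.9 after EGCG+HC. The 4 groups did not overlap and stood in the order control, HC, EGCG, EGCG+HC. The mean fell 1.71-fold with EGCG (log2 fold change -0.75, SE 0.06, adjusted p = 3.63e-05) and 2.59-fold with EGCG+HC (log2 fold change -1.32, SE 0.06, adjusted p = 7.4e-07), while HC missed the fold limit (-0.24). In 1321N1 all 12 libraries were between 3.31 and 4.51 RPKM. NRCAM, a relative of L1CAM, was under the filter in the comparisons with control and higher with HC and EGCG+HC. It went from 0.00747, 0.015 and 0.027 RPKM in 1321N1 control to 0.199, 0.194 and 0.143 with HC and 0.9, 0.895 and 0.692 with EGCG+HC, and from 0.246, 0.265 and 0.27 in LN18 control to 0.996, 0.739 and 0.818 with HC and 1.56, 1.38 and 1.64 with EGCG+HC. EGCG+HC libraries were above all other libraries of their line. With EGCG, NRCAM was at 0.033 to 0.078 RPKM in 1321N1 and overlapped control in LN18, at 0.227 to 0.343. CHL1, the third member, was at 0.291 to 0.341 RPKM in 1321N1 control and lower in treated libraries, at 0.036 to 0.052 with HC and 0.052 to 0.126 with EGCG+HC.

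DPYSL3 (ENSG00000113657, GRCh37 chr5:146770371-146889631, minus strand) was the member that fell past the threshold with EGCG+HC in both lines. It had 54.9, 54.1 and 54.2 RPKM in 1321N1 control, 36.3, 37.3 and 36.7 after EGCG, 26.1, 25.3 and 26.3 after HC and 28.4, 29.3 and 28.4 after EGCG+HC. HC libraries were lowest and control libraries highest, with no overlap between groups. The mean fell 2.1-fold with HC (log2 fold change -1.04, SE 0.03, adjusted p = 2.14e-07) and 1.9-fold with EGCG+HC (log2 fold change -0.90, SE 0.03, adjusted p = 2.62e-07), and with EGCG the log2 fold change was -0.55, under the fold limit. In LN18 it had 41, 42.9 and 44.4 RPKM in control, 40.1, 40.7 and 40.5 after EGCG, 32.8, 32.1 and 33.7 after HC and 28.5, 27.8 and 28.1 after EGCG+HC, with the lowest values in the last (log2 fold change -0.59, SE 0.03, adjusted p = 2.86e-06). The call in LN18 was near the limit and was lost without control replicate 3 (-0.56) or without EGCG+HC replicate 2 (-0.58). DPYSL2, the CRMP that acts downstream of semaphorin 3A, passed the threshold in 0 of the 6 comparisons with control. It was highest with EGCG in 1321N1, at 11.8 to 13.2 RPKM against 8.16 to 9.28 in control, and highest with HC in LN18, at 9.25 to 10.2 against 5.92 to 6.75. DPYSL4, of the same gene family but not a member, rose past the threshold in LN18 with EGCG and with HC. Its mean was 7 RPKM in LN18 control, 12.8 with EGCG (log2 fold change 0.79) and 19.3 with HC (log2 fold change 1.34).

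**Figure D4:**
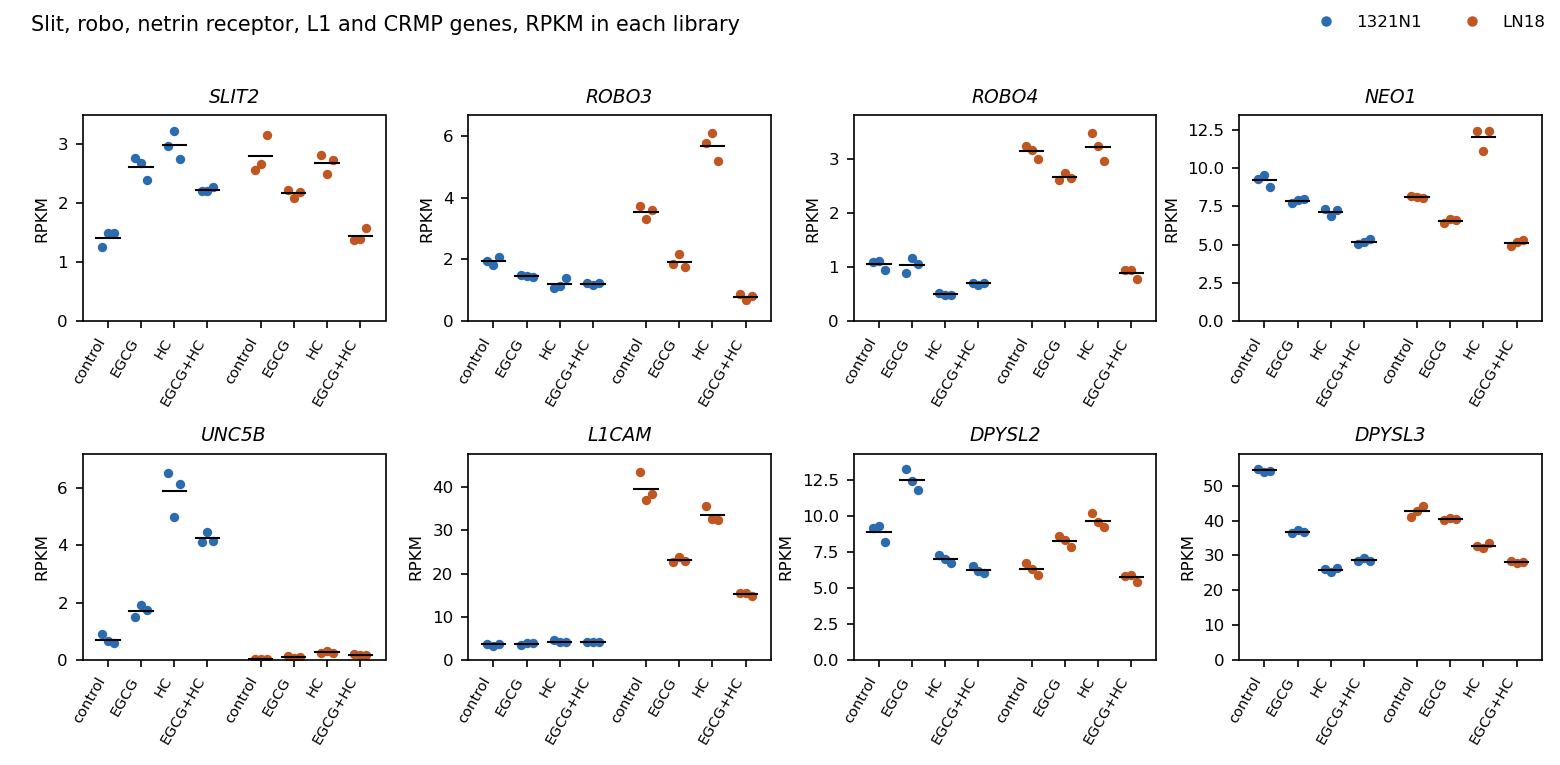
RPKM in each library (points) and the mean of the 3 libraries of a group (line) for SLIT2, robo receptors, netrin receptors, L1CAM, DPYSL2 and DPYSL3, in 1321N1 (blue) and LN18 (orange), on axes that start at 0. L1CAM, ROBO3 and ROBO4 are lowest with EGCG+HC in LN18, UNC5B is raised by each treatment in 1321N1, and DPYSL3 is lowest with HC in 1321N1 and with EGCG+HC in LN18.

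The combined treatment was also set against each single agent and against the sum of both. These comparisons share libraries with those above, so that each value is given for itself. Against HC in 1321N1, 20 genes were tested, 0 were higher (all genes 12.2%) and 6 lower (all genes 7.23%), which were EPHB3 (-1.09), EPHA4 (-1.03), EFNA4 (-0.88), EFNB2 (-0.85), EPHB4 (-0.85) and EPHB2 (-0.66), all Eph receptors or ephrins. Against EGCG in 1321N1, 20 were tested, with UNC5B higher (0.95, all genes 19.1%) and 4 lower (all genes 20.5%), EFNA4 (-1.36), EPHB4 (-1.34), DPYSL2 (-0.90) and EPHA3 (-0.67). Against HC in LN18, 19 were tested, with EFNB2 higher (0.69, all genes 19.5%) and 9 lower (all genes 25.9%), from ROBO3 (-1.89) and EFNB3 (-1.45) to SLIT2 (-0.59). NEO1 (-1.09), EPHB2 (-1.07) and DPYSL2 (-0.66) were among these, and they are genes that HC alone had left above control. The call of SLIT2 was lost in 4 of the 6 fits that left out 1 library (-0.58 to -0.56) and with quantile normalization (-0.55), that of DPYSL2 with quantile normalization (-0.49) and that of EFNB2 after rescaling without mitochondrial genes (0.58). ROBO3, ROBO4 and EFNB3 met the filter through the HC libraries. Against EGCG in LN18, 17 were tested, with 0 higher (all genes 19.5%) and 3 lower (all genes 17.5%), ROBO4 (-0.96), EPHB4 (-0.76) and ROBO3 (-0.70). EPHA2 was under the fold limit there (log2 fold change -0.36, adjusted p = 1.91e-05), although every EGCG+HC library was below every EGCG library.

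The change beyond the sum of the single treatments is the log2 change with EGCG+HC less those with EGCG and with HC, over the 12 libraries of a line. In 1321N1, of 20 genes tested, 2 lay above the sum (all genes 10.3%) and 10 below it (all genes 12.8%). EPHA4 lay furthest below (-1.42, SE 0.07, adjusted p = 7.83e-08), followed by UNC5B (-1.06), NTN4 (-0.92), SLIT2 (-0.88), EFNA4 (-0.85), EFNB2 (-0.82), EFNB1 (-0.78), EPHB4 (-0.75), EPHB3 (-0.73) and DPYSL2 (-0.60). EPHA4, EFNB1, EFNB2, EPHB3, SLIT2, NTN4 and UNC5B had risen with HC alone, and every EGCG+HC library of these genes was below every HC library. EPHA2 (0.80) and DPYSL3 (0.70) lay above the sum, with higher levels than the single changes add up to. In LN18, of 18 genes tested, 0 lay above (all genes 14.5%) and 6 below (all genes 23.1%), ROBO3 (-1.26, SE 0.10, adjusted p = 5.71e-07), EFNB3 (-1.22), DPYSL2 (-1.0), ROBO4 (-0.99), NEO1 (-0.82) and NTN4 (-0.71). EPHA2 (0.07) and L1CAM (-0.33) were not past the threshold in LN18, and EPHB2 was past it in neither line (0.40 in 1321N1 and -0.07 in LN18). The sum and its limits are on the log2(RPKM + 1) scale. The call of DPYSL2 in 1321N1 was lost in 4 of the 12 fits that left out 1 library and with both other scalings, and that of NTN4 in LN18 with quantile normalization (-0.56).

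The response of each gene was compared between lines by an interaction term, as the log2 change in LN18 less that in 1321N1. HC was given at different amounts, so that for HC and EGCG+HC line and dose cannot be told apart. The share of serum also differed, so that for every treatment, EGCG included, line and serum cannot be told apart. With EGCG, given at the same amount, 21 genes were tested, with 2 higher (all genes 5.59%) and 3 lower (all genes 11.4%). EPHA2 (-1.01, adjusted p = 1.1e-05), SLIT2 (-0.84) and L1CAM (-0.79) were lower, and EFNA1 (0.68) and EPHB4 (0.65) higher in their response in LN18. With HC, 22 were tested, with 6 higher (all genes 19.6%) and 5 lower (all genes 12.6%). UNC5B (-1.71), EPHA4 (-1.28) and EFNB1 (-0.98) had the lowest values and ROBO3 (0.98), EPHA3 (0.94) and EFNB3 (0.91) the highest. With EGCG+HC, 21 were tested, with 6 higher (all genes 15%) and 6 lower (all genes 18.2%). EPHA2 (-1.73, SE 0.09, adjusted p = 1.9e-08), L1CAM (-1.48), SLIT2 (-1.05), ROBO3 (-0.93) and ROBO4 (-0.86) fell more, or rose less, in LN18. EFNA4 (1.40), EPHB4 (1.23), EFNB2 (0.89) and EFNA1 (0.81) fell more, or rose less, in 1321N1. The remaining values were -1.43 for UNC5B, 0.90 for EPHA3 and 0.63 for EPHB3. UNC5B, EPHA3, EPHA4 and EPHB3 were under 1 RPKM in LN18, where a change on the log2(RPKM + 1) scale is close to 0 whatever its fold. Their values thus describe 1321N1 and cannot show whether the responses differ. For UNC5B the ratio of means to control was 7.2 in LN18 and 8.27 in 1321N1 with HC, and 4.95 and 5.96 with EGCG+HC. For the other genes the lines lay on opposite sides of 1 where the difference passed the threshold. With HC the ratios were 1.89 in LN18 and 0.506 in 1321N1 for EPHA3, and 0.826 and 2.71 for EPHA4. With EGCG+HC they were 1.78 and 0.521 for EPHA3, and 2.68 and 0.644 for EPHB3. None of these ratios was tested. ROBO4 with EGCG+HC and EFNB3 with HC met the filter through LN18. In 1321N1 they lay near or under 1 RPKM, where changes on the log2(RPKM + 1) scale are shrunk. Libraries of ROBO4 there held 0.943 to 1.12 RPKM in control and 0.679 to 0.713 with EGCG+HC. The size of both differences thus depends on the scale, although both calls held with a pseudocount of 0.1.

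**Figure D5:**
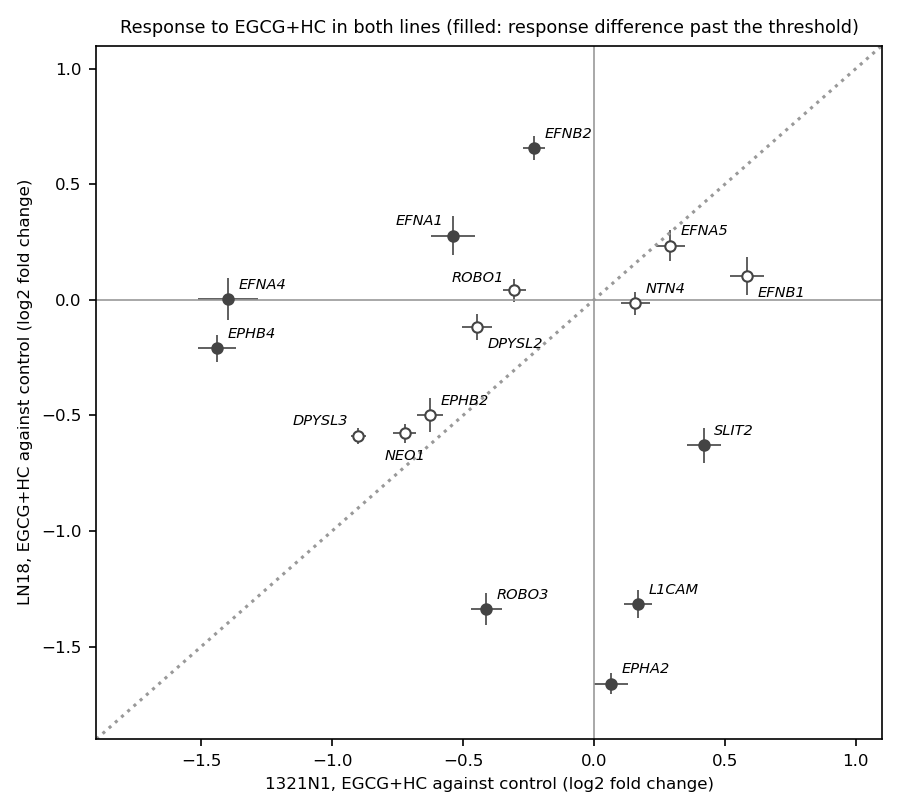
Log2 fold change with EGCG+HC against control in 1321N1 (horizontal) and LN18 (vertical) for the 16 genes tested in both lines, with bars of 1 standard error; filled points have a difference between the responses past the threshold, and the dotted line marks equal responses. EPHB4 and EFNA4 lie far left near 0 in LN18, EPHA2 and L1CAM lie low near 0 in 1321N1, and EPHB2, NEO1 and DPYSL3 lie near the line of equal responses.

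Genes that act downstream of or beside these receptors were followed in lists of partners. Of 29 Eph effectors, 23 were tested in 1321N1 with EGCG+HC, of which 2 were higher (all genes 23.1%) and 5 lower (all genes 18%). Their median log2 fold change was -0.09. In LN18, 24 were tested, of which 3 were higher (all genes 24.1%) and 7 lower (all genes 22.2%), with a median of -0.21. No test was made of the shares of this or the other lists. VAV2, an exchange factor bound by Eph receptors, fell in both lines (15.7 ± 0.524 to 6.84 ± 0.147 RPKM, log2 fold change -1.08, SE 0.04 in 1321N1, and 7.67 ± 0.0452 to 3.1 ± 0.204 RPKM, log2 fold change -1.08, SE 0.05 in LN18). So did INPPL1, the phosphatase SHIP2 that binds EPHA2 (-1.0 in 1321N1 and -1.25 in LN18). SDCBP (syntenin), which binds the tail of ephrin-B, rose in 1321N1 (17.1 ± 0.825 to 74.8 ± 0.481 RPKM, log2 fold change 2.07, SE 0.04) and in LN18 (0.77), and RGS3 rose in 1321N1 (0.99). RASA1, a RAS GTPase activator that binds EPHB2, fell in both lines (-0.67 and -1.36). The kinase FYN fell in 1321N1 (-0.69) and rose in LN18 (1.45), where its control mean of 0.503 RPKM was under the filter. Differences between lines were not tested for partners.

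Of 23 slit and robo effectors, 22 were tested with EGCG+HC in each line, with 1 higher and 7 lower in both 1321N1 (median log2 fold change -0.20) and LN18 (median -0.27). Of all genes, 23.1% were higher and 18% lower in 1321N1, and 24.1% and 22.2% in LN18. ABL2, a kinase of the family that binds ROBO1, was the higher gene in both (9.17 ± 0.138 to 66.5 ± 0.333 RPKM, log2 fold change 2.73, SE 0.03 in 1321N1, and 5.41 ± 0.71 to 16 ± 0.143 RPKM, log2 fold change 1.41, SE 0.08 in LN18). SDC1, a heparan sulfate proteoglycan of the kind slits bind, fell in both lines (-1.24 and -1.04). So did SDC3 (-1.68 and -0.65) and MYO9B (-0.82 and -1.41), while ABL1 passed in 1321N1 (-0.85) and VASP in LN18 (-0.80). Of 27 netrin partners, 16 were tested in 1321N1 (1 higher, 5 lower, median -0.26) and 13 in LN18 (1 higher, 7 lower, median -0.71). DOCK1 (-1.08 and -1.36), which couples DCC to Rac, PRKCA (-1.11 and -1.68), a protein kinase C, and APPL1 (-0.83 and -0.95) fell in both lines. DAPK1 (-1.66), a death kinase that binds UNC5B, and FLRT2 (-1.09), a ligand of UNC5 receptors, fell in 1321N1, and TRIO (-1.28) in LN18.

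Of 30 partners of L1 and CRMP proteins, 23 were tested in 1321N1 with EGCG+HC (2 higher, 5 lower, median -0.15) and 21 in LN18 (2 higher, 8 lower, median -0.40). CRMP1, a further CRMP, fell in both lines (6.19 ± 0.607 to 2.15 ± 0.205 RPKM, log2 fold change -1.19, SE 0.08 in 1321N1, and 5.57 ± 0.541 to 1.58 ± 0.233 RPKM, log2 fold change -1.35, SE 0.09 in LN18). CDK5R1, the activator of the kinase CDK5 that phosphorylates CRMPs, rose in both (1.11 and 1.45). So did RANBP9 (1.01 and 0.66). TUBB, a beta tubulin, fell in 1321N1 (1027 ± 8.38 to 417 ± 3.18 RPKM, log2 fold change -1.30, SE 0.03) and in LN18 (-0.68), as did ROCK2 (-0.66 and -0.99), and EZR (ezrin) fell in LN18 (-1.04). The further Eph receptors EPHA6, EPHA8 and EPHA10 had 0 of 3 tested in either line. The background for these counts is that of all genes tested with EGCG+HC, with 23.1% higher and 18% lower in 1321N1, and 24.1% and 22.2% in LN18.

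Changes on the log2(RPKM + 1) scale understate those of low genes. With a pseudocount of 0.1 in place of 1, the log2 fold change with EGCG+HC in LN18 was -2.02 for ROBO3, -1.72 for ROBO4 and -1.43 for EFNB3, and that of UNC5B in 1321N1 was 2.44. That of EPHA2 in LN18, well above 1 RPKM, was -1.70.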

How the data were processed

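The authors trimmed paired-end reads at a quality of 25, kept reads of at least 33 bases, aligned them to GRCh37 (hg19) and deposited RPKM values made with CLC Genomics Workbench 7.0.6. Its annotation and counting options were not stated in what was read here. Libraries were made with an unstranded poly(A) kit. Of the deposited columns of per-sample values 0 were left unmapped. Gene names that a spreadsheet had converted to dates, 25 to 27 in each group, were dropped.

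The test was limma 3.58.1 (R 4.3.3, moderated with a mean-variance trend) on log2(RPKM + 1), for genes averaging 1 RPKM or more over the fitted libraries. Adjusted p-values are Benjamini-Hochberg over all genes tested. Pairs of groups were fitted on their 6 libraries alone, and sums and differences in response on 12. A check of the test on simulated data set changes only in genes of a higher level than most members, so that it does not cover calls at low levels. Counted reads per library were recovered from the steps of low values in genes of 1 exon. Of these values, 61.8 and 62.7% lay within 0.1 of a whole read in 1321N1 EGCG replicates 2 and 3, which hold the genes at 0. In the other libraries 84.6 to 90.9% did, so that the depth of these replicates is less certain. Gene positions are from GENCODE on GRCh37 and promoters from RefSeq on GRCh38.p14. Tables were made with Python 3.11.15, pandas 2.3.3 and numpy 2.4.6.

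The members and the lists of partners and markers were chosen with earlier results of these data known. Every member is named. Members past the threshold with EGCG+HC in either line are given in full, and up to 4 genes of each list and line by the size of their change. Other settings tried were a pseudocount of 0.1, quantile normalization, rescaling without mitochondrial genes, no filter, a mean of at least 5 RPKM, missing names at 0, no fold limit, a spread shared by all groups, the replicate number as a block, and leaving out each library. Leaving out 1321N1 EGCG replicates 2 and 3 together was chosen after seeing the data.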

Additional observations from a re-analysis of the deposited data

Results flagged for a closer look

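The responses below, apart from those named in the last paragraph, differed between LN18 and 1321N1 by an interaction term in limma over 12 libraries, past an adjusted p of 0.05 and a fold of 1.5. Values are the log2 change in LN18 less that in 1321N1, and HC and serum differed in amount between the lines.

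With EGCG, the difference was -1.01 for EPHA2, -0.84 for SLIT2, -0.79 for L1CAM, 0.68 for EFNA1 and 0.65 for EPHB4. The last was lost without 1321N1 control replicate 1 (0.57).

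With HC, it was -1.71 for UNC5B, -1.28 for EPHA4, -0.98 for EFNB1, -0.76 for SLIT2 and -0.66 for EFNB2. It was 0.98 for ROBO3, 0.94 for EPHA3, 0.91 for EFNB3, 0.84 for DPYSL2, 0.83 for NEO1 and 0.68 for DPYSL3.

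With EGCG+HC, it was -1.73 for EPHA2, -1.48 for L1CAM, -1.43 for UNC5B, -1.05 for SLIT2, -0.93 for ROBO3 and -0.86 for ROBO4. It was 1.40 for EFNA4, 1.23 for EPHB4, 0.90 for EPHA3, 0.89 for EFNB2, 0.81 for EFNA1 and 0.63 for EPHB3. ROBO4 here, and EFNB3 with HC, lay near or under 1 RPKM in 1321N1, so that the size of their differences depends on the scale.

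UNC5B, EPHA3, EPHA4 and EPHB3 were under 1 RPKM in LN18 and entered these fits through 1321N1, so that their values cannot show whether the responses differ. The ratio of UNC5B means to control with HC was 7.2 in LN18 and 8.27 in 1321N1. That of EPHA3 was 1.89 and 0.506, and that of EPHA4 was 0.826 and 2.71. With EGCG+HC it was 2.68 and 0.644 for EPHB3. None of these ratios was tested.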

How the results depend on the processing

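Of 114 changes of single genes past the threshold in the 16 comparisons, 0 reversed and 96 stayed past it under every alternative that could be run, while 9 were lost in some fit that left out 1 library. Quantile normalization lost 6 and rescaling without mitochondrial genes 7. Both move the median of all genes by over 0.1 in some comparisons, such as LN18 HC against control with quantile normalization (-0.13).

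Without the fold limit the number of members called was 14 for EGCG, 17 for HC and 19 for EGCG+HC against control in 1321N1, and 12, 12 and 13 in LN18, where 40.1, 76.6 and 80.9% of all genes tested were called in 1321N1 and 71.3, 55.4 and 84% in LN18. It was 16 for EGCG+HC against HC and 17 against EGCG in 1321N1, 14 against EGCG in LN18, 19 and 14 beyond the sum in 1321N1 and LN18, 20 between controls, and 13 and 19 for the differences in response to EGCG and HC. Over all genes these comparisons called 70.4, 79, 82.3, 61.1, 72.8, 80.4, 54.3 and 66.4%, in the same order.

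With a mean of at least 5 RPKM fewer genes were tested and called. Against control, 1 of 10 tested was called with EGCG and 6 of 12 with HC in 1321N1. In LN18 it was 0 of 10 with HC and 4 of 10 with EGCG+HC. EGCG+HC against EGCG called 3 of 8 in 1321N1 and 1 of 10 in LN18, and against HC 6 of 10 in LN18. Beyond the sum there were 7 of 11 in 1321N1 and 2 of 10 in LN18, and between controls 5 of 10. For the responses, each with 10 tested, there were 3 (EGCG), 5 (HC) and 4 (EGCG+HC). Shares of all genes are not given for this setting, so that these counts stand without a background.

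With a pseudocount of 0.1, 12 of 20 tested were called with EGCG+HC in 1321N1 and 4 of 18 with HC in LN18. For EGCG+HC against EGCG in LN18 it was 5 of 17, and for the response to EGCG 9 of 21. Of the 18 tested in LN18 with HC, 0 were called with quantile normalization and 2 after rescaling, and 1 to 2 without 1 library. Shares of all genes are not given for these settings either.

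Replicate numbers did not pair the libraries. Same-numbered libraries had correlations of -0.108 to 0.154 in their deviations from the group means, and in no comparison were all 3 over 0.1. The fit with the replicate block called 7 members with EGCG+HC in 1321N1 and 8 in LN18, as without it, and changed 0 of the 114 calls. Most members under about 1 RPKM rest on few reads, with about 5.1 for EPHB1 but 74 for EPHA5 in their lowest libraries. Differences in members left out by the filter were not tested, and small ones may be missed at this depth. Without LN18 control replicate 3, 4 of 18 members tested were lower with EGCG+HC in LN18 in place of 7, and 2 were higher in place of 1. EFNB3 left the test in that fit through the filter. Shares of all genes are not given for that fit.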
